A study of Mus musculus with 8 samples.

Results

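The 10 RNAs described here are small, strongly folded non-coding RNAs that work inside ribonucleoprotein particles. They were picked out of the gene tables by name. They are the 7SK RNA (Rn7sk), a pair of annotated copies of the 7SL RNA (Rn7s1 and Rn7s2), the RNAs of RNase MRP (Rmrp) and RNase P (Rpph1), the telomerase RNA (Terc), the U11 and U12 small nuclear RNAs (Rnu11 and Rnu12) and the Y1 and Y3 RNAs (Rny1 and Rny3). These are 10 of the 55291 genes in the tables, and all 10 had at least 1 count in each library and passed the filter on low counts.

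The data were 8 RNA-seq libraries from mouse embryonic stem cells, which form 4 groups of 2. In the DHX35-dTAG line the RNA helicase DHX35, and in the GPATCH1-dTAG line its G-patch partner GPATCH1, carries the dTAG degron, through which the compound dTAG-13 has the tagged protein degraded. Each line was given DMSO, the solvent, or 200 nM dTAG-13 for 4 h, so that the degron is shared by the control and the treated libraries of a line. The cells are labelled E14, although the growth protocol mentions R1, and single colonies were picked, several clones of which were kept, while the labels do not name the clone behind a library. Nothing in the labels says that the libraries of a group came from separate cultures, so that p-values measure the spread between these libraries only.

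Most of these RNAs are made by RNA polymerase III, which ends transcription at a short run of T. The telomerase, U11 and U12 RNAs are made by RNA polymerase II. All of them are short, lack a long poly(A) tail and are folded around a fixed set of proteins. 7SK holds back the elongation kinase P-TEFb, 7SL is the scaffold of the signal recognition particle, RNase MRP and RNase P cut precursors of ribosomal and transfer RNA, U11 and U12 recognise the introns of the minor spliceosome, and Y RNAs bind the Ro60 protein.

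Total counts were between 12014203 and 14994173 per library. Between 1.27% and 20.9% of them fell on Gm23935 and CT010467.1, which is ribosomal RNA. A single library, DHX35-dTAG DMSO replicate 1, was unlike the rest, with a mean correlation of 0.979 with the other libraries against 0.991 to 0.993 for the others, and the tests on DHX35 depletion are given with and without it. Dhx35 mRNA was at 76.6 and 88.3 CPM (counts scaled to the library total) in DMSO and at 82.6 and 68.1 CPM in dTAG-13 in its own line. Gpatch1 mRNA was at 7.71 and 5.84 CPM in DMSO and at 7.60 and 7.61 CPM in dTAG-13 in its own line. The degron acts on protein, so that these mRNAs do not show depletion. Gpatch1 was between 20.3 and 27.2 CPM in the DHX35-dTAG line and so separated the lines, whereas Dhx35, at 49.5 to 68.5 CPM in the GPATCH1-dTAG line, did not. Of 10 embryonic stem cell markers, all were tested, with a summed level of 4853 to 6794 CPM, while 5 of 8 fibroblast markers had at most 3 counts in any library and the 8 summed to between 3.74 and 7.68 CPM.

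The sequences of the RNAs, from the GENCODE M21 transcripts (GRCm38), show what separates them. Terc (chr3:96414437-96414859, minus strand) is 423 bases long, and its first 120 bases hold CTAACCC from position 29, the complement of the telomere repeat that telomerase copies, in capitals here.
Terc: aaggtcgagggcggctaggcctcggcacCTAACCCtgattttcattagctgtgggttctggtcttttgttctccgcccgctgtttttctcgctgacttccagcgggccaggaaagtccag
Rnu11 (chr4:132270080-132270213, minus strand) and Rnu12 (chr15:83149644-83149794, plus strand) are shown whole, since they pair with intron sequence, with the stretches known to face the 5′ splice site in U11 and the branch site in U12 in capitals.
Rnu11: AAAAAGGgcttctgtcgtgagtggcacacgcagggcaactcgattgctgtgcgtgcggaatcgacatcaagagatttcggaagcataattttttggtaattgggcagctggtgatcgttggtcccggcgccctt
Rnu12: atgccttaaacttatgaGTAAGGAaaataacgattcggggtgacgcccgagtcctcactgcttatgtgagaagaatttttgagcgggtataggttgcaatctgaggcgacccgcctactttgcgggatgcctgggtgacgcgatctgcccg
Searched on the transcript strand alone, CTAACCC is in 0.934%, GTAAGGA in 1.61% and AAAAAGG in 3.76% of the 23231 annotated transcripts of 90 to 450 bases.

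Rny1 (chr6:47788069-47788180, minus strand) and Rny3 (chr6:47781624-47781725, plus strand) lie near each other and are printed because they differed in DHX35-dTAG DMSO replicate 1. Their final T run, 4 bases long in each, is in capitals.
Rny1: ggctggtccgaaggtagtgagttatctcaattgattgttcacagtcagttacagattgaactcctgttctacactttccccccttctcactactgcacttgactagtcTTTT
Rny3: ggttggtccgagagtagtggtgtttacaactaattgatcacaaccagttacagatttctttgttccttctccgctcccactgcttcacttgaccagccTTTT
Aligned end to end, they were identical at 80 of 112 columns, or 71.4%. The 7SL copies Rn7s1 (chr12:69159295-69159594, plus strand) and Rn7s2 (chr12:69361182-69361481, minus strand) were identical over all 300 bases, so that a read inside the RNA cannot tell them apart.
Rn7sk (chr9:78175303-78175633, minus strand) ends in TTT, in capitals in the last 120 of its 331 bases.
Rn7sk: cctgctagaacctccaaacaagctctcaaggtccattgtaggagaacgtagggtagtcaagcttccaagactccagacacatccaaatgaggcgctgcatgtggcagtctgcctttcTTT
Of the same 23231 transcripts, 4.07% end in TTT and 8.75% in TT, as both 7SL copies do. Rmrp (chr4:43492783-43493063, minus strand, 281 bases) and Rpph1 (chr14:50807449-50807767, minus strand, 319 bases) carry no T run at their annotated end. All 10 RNAs are annotated with a single exon. Their GC content was between 43.8% for Rny1 and 67.1% for Rpph1 and Terc, and between 57.0% (Rnu12) and 71.5% (Rpph1) of their bases were paired in the structure predicted by RNAfold.

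Of the 10 RNAs, only Rmrp and Rn7sk had high levels in the counts of these libraries. Per kb of RNA, the median level over the 8 libraries was 18608 CPM for Rmrp and 12776 CPM for Rn7sk, and the next, Terc, was at 126 CPM. Rny1 followed at 108 CPM per kb, Rn7s2 at 90.5, Rny3 at 52.8, Rnu12 at 31.1, Rn7s1 at 18.4, Rnu11 at 13.6 and Rpph1 at 0.708. Without DHX35-dTAG DMSO replicate 1, Rmrp (14944 to 20620 CPM per kb) and Rn7sk (11074 to 13587) did not overlap with each other or with any other RNA. Each following neighbour overlapped with the next over these 7 libraries down to Rnu11 (9.50 to 14.8 CPM per kb), and Rpph1 (0.261 to 2.93) lay below them all. The ranges of neighbours from Terc to Rnu11 thus overlapped, while that of Terc (97.2 to 157) did not overlap with that of Rny3 (40.1 to 74.2) or of the RNAs below it. Within each of the 7 libraries, Rny3 was above Rnu12 and Rny1 above Rn7s2, the latter by as little as 88.82 against 88.66 CPM per kb, while the other neighbours from Terc to Rnu11 changed places in at least 1 library. Ribosomal RNA had been removed before the libraries were made, and how far such short RNAs were recovered was not measured, so that these levels compare counted reads and not molecules per cell. The 7SL copies share their whole sequence, and most of Rpph1 lies in an exon of another gene. Their counts may miss reads, so that their places in this order are uncertain.

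**Figure D1:**
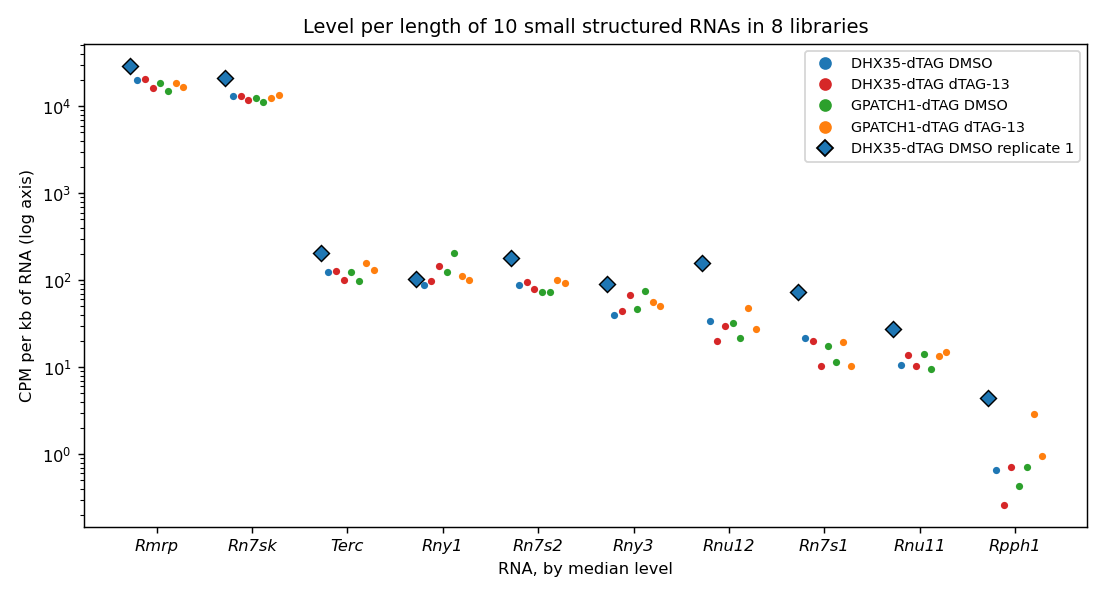
Level of each RNA in each library, as CPM per kb of RNA on a log axis, coloured by group, with DHX35-dTAG DMSO replicate 1 as a diamond. Rmrp and Rn7sk lie far above the other 8 RNAs, and the diamond is the highest point for each RNA except Rny1.

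DHX35-dTAG DMSO replicate 1 had the highest CPM for most of these RNAs. In CPM, 9 of the 10 RNAs were above all other 7 libraries there, and only Rny1 was within their range, whereas 32.6% of the 16371 genes tested were above all other 7 in this library and 15.1% were below. With TMM scaling, 8 of 10 were highest there, as Rny3 was then higher in GPATCH1-dTAG DMSO replicate 2. The median log2 ratio of the 10 RNAs to the median of the other 7 libraries was 0.95, against 0.07 for all genes tested. For each of the other libraries, the same median was between -0.33 and 0.17, and at most 1 of the 10 RNAs was highest there. The library was singled out with earlier results known, and these values are a description without a test. Human RNA had been added to the samples, and how reads alike in human and mouse were counted is not given in the sources used here. The part of the human RNA in these values was not tested.

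The 10 RNAs took 1.55% of the counts in this library (95% Wilson interval 1.54% to 1.55%), and between 0.797% and 1.02% in the others. Without Rmrp and Rn7sk, the 8 remaining RNAs took 0.0214% of its counts (0.0206% to 0.0222%), against 0.00992% to 0.0131% elsewhere. These intervals cover counting error only. The ratio to the median of the other 7 was not alike for the RNAs, ranging from 0.926 for Rny1 and 1.57 for Rmrp to 4.19 for Rn7s1, 5.26 for Rnu12 and 6.28 for Rpph1, the last from 18 counts against 1 to 14. The median log2 ratio was 0.86 for the 7 RNAs made by RNA polymerase III and 1.03 for the 3 made by RNA polymerase II.

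**Figure D2:**
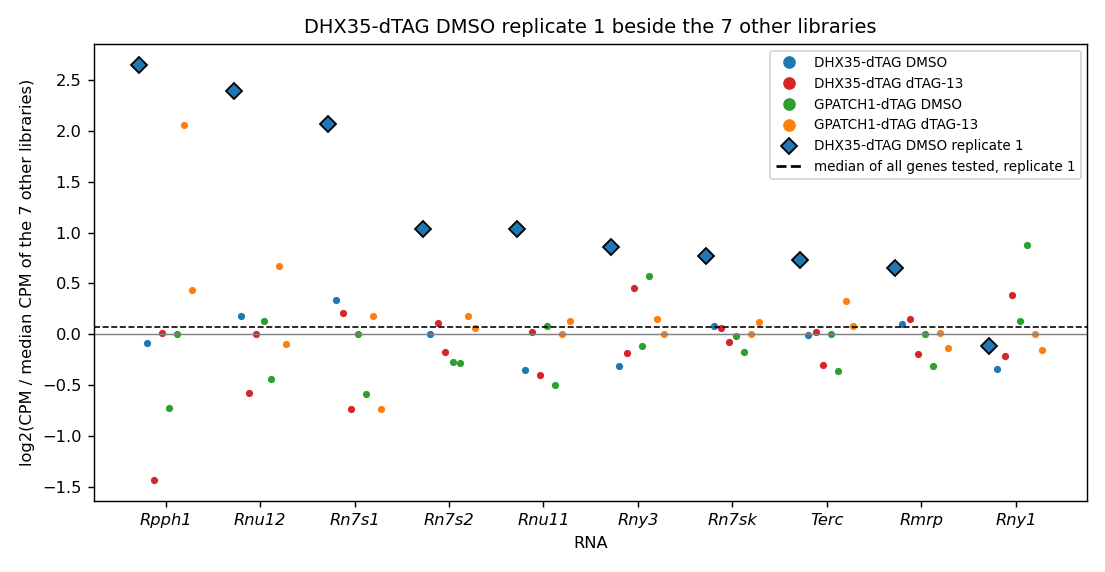
log2 of the CPM in each library over the median CPM of the 7 libraries other than DHX35-dTAG DMSO replicate 1 (diamond), for each RNA. The dashed line is the median of all 16371 genes tested in that library, 0.07, and the diamond lies above all circles except for Rny1.

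In the tests between groups, none of the 10 RNAs passed the threshold in any of 5 comparisons (quasi-likelihood test of edgeR, with p-values adjusted over 16371 genes by the Benjamini-Hochberg method). On DHX35 depletion, 0% of all genes were called, and 0 of the 10 RNAs were called, with 2 at an unadjusted p under 0.05. On GPATCH1 depletion, 0% of all genes and 0 of the 10 RNAs were called, with 1 RNA at an unadjusted p under 0.05. For dTAG-13 across both lines and for the contrast of both responses, 0% of all genes and 0 of the 10 RNAs were called, with 0 and 2 RNAs at an unadjusted p under 0.05. Between the DMSO libraries of both lines, 0.0916% of all genes (15 genes) and 0 of the 10 RNAs were called, with 4 at an unadjusted p under 0.05. Of all 16371 genes, 882, 486, 587, 639 and 2116 were at an unadjusted p under 0.05 in these comparisons, in the order given. DESeq2 also called 0 of the 10 in each comparison. The line difference shares its DMSO libraries with both depletions, so that these values are not independent of each other.

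The median log2 fold change of the 10 RNAs was -0.36 when DHX35 and 0.03 when GPATCH1 was depleted, against -0.01 and 0.00 over all genes tested. On DHX35 depletion 8 of the 10 values were below 0. Without replicate 1 in DMSO, 5 of these 8 turned positive, namely Rn7sk (0.18), Rn7s2 (0.24), Rmrp (0.14), Terc (0.14) and Rnu11 (0.43), and the other values became -0.28 for Rn7s1, -0.14 for Rpph1, -0.16 for Rnu12, 0.74 for Rny1 and 0.77 for Rny3. In that fit 0 of the 10 RNAs were called, beside 0.0117% of the 17037 genes tested (2 genes). With that library as the only DMSO library of the line, the values ran from -2.86 for Rpph1 and -2.41 for Rnu12 to -0.44 for Rmrp. Rny1 alone was above 0, at 0.47. As most of these RNAs were highest in that library, the lower values followed from the choice of control and are no result on depletion.

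In CPM, 3 of the 10 RNAs (Rn7sk, Rn7s1 and Rnu12) were lower in both dTAG-13 libraries than in both DMSO libraries of DHX35-dTAG cells, as were 48% of all genes tested, and 0 were higher in both, as were 2.02% of all genes. In GPATCH1-dTAG cells 4 of the 10 (Rn7sk, Rn7s2, Rpph1 and Terc) were higher in CPM in both dTAG-13 libraries, as were 36.4% of all genes, and 1 (Rny1) was lower in both, as were 4.54% of all genes. With TMM scaling the GPATCH1-dTAG groups overlapped for Rn7sk. Rmrp was then lower in dTAG-13 (4865 and 4474 CPM) than in DMSO (4935 and 4948 CPM) in that line. In DHX35-dTAG cells, the groups overlapped with TMM scaling for Rn7sk, Rn7s1 and Rnu12. No RNA was then lower in both dTAG-13 libraries of that line. Rny1 alone was higher in both, at 11.18 and 19.15 CPM against 10.99 and 9.05 CPM in DMSO. The shares of all genes with TMM scaling are not given here.

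Between the lines in DMSO, 8 of the 10 values were below 0, that is, lower in GPATCH1-dTAG cells. The median log2 difference was -0.44, against -0.008 over all genes tested. The RNAs with the lowest p were Rny1, described with the other Y RNA, Rn7s1 (-1.53, standard error 0.53, adjusted p = 0.35, edgeR), Rnu12 (-1.62, standard error 0.62, adjusted p = 0.35, edgeR) and Rn7s2 (-0.70, standard error 0.29, adjusted p = 0.36, edgeR). Without DHX35-dTAG DMSO replicate 1, Rn7s1 was at -0.39, Rnu12 at -0.10, Rn7s2 at -0.07 and Rmrp and Rpph1 at -0.04. Rn7sk (0.046), Terc (0.041) and Rnu11 (0.385) then turned positive.

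**Figure D3:**
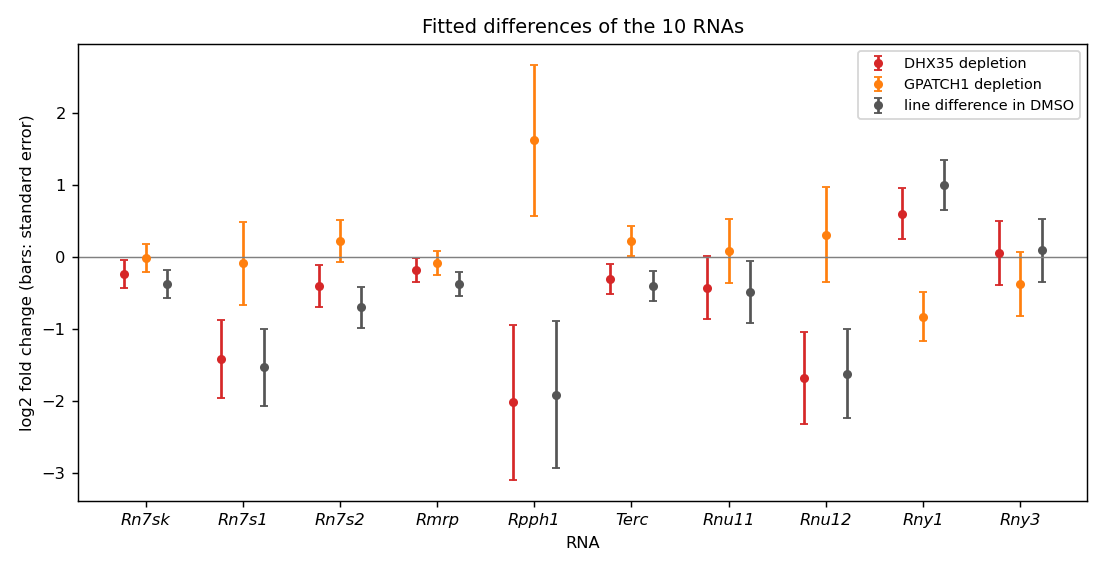
Fitted log2 fold change of each RNA, with its standard error, for dTAG-13 against DMSO in DHX35-dTAG cells (red), the same in GPATCH1-dTAG cells (orange), and GPATCH1-dTAG against DHX35-dTAG cells in DMSO (grey). None of the points passed an adjusted p of 0.05.

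Rn7sk, the RNA that holds P-TEFb inactive, was at 7061 and 4370 CPM in DHX35-dTAG cells in DMSO and at 4322 and 3916 CPM in dTAG-13. The GPATCH1-dTAG line had it at 4097 and 3666 CPM in DMSO and at 4136 and 4497 CPM in dTAG-13. Replicate 1 was thus 1.57 times the highest of the other 7 libraries, which differed among themselves by at most 1.23 times. The log2 fold change was -0.24 (standard error 0.20, adjusted p = 0.73, edgeR) on DHX35 depletion and -0.02 (standard error 0.20, adjusted p = 1, edgeR) on GPATCH1 depletion. Of its 331 bases, stretches of 100 bases recur exactly in 3 other annotated genes, which together held 530 to 1215 counts, against 48949 to 90135 for Rn7sk itself.

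All 7 proteins of the 7SK particle and P-TEFb that were tested passed no threshold in any comparison. On DHX35 depletion the lowest p among them was that of Hexim2, a P-TEFb inhibitor (log2 fold change -0.20, standard error 0.13, adjusted p = 0.72, edgeR, and -0.19 without DHX35-dTAG DMSO replicate 1), and on GPATCH1 depletion that of Mepce, the enzyme that caps 7SK (-0.11, standard error 0.11, adjusted p = 1, edgeR). In DHX35-dTAG DMSO replicate 1, 4 of the 7 were above all other 7 libraries, against 32.6% of all genes tested, and the median log2 ratio of the list was 0.25. Ccnt2, of the same list, was below them all there, at 125.8 CPM against 140.6 to 196.6.

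Of the 7SL copies, Rn7s2 held more counts than Rn7s1 in each library, between 2.52 and 8.88 times as many. Rn7s1 was at 21.7 and 6.56 CPM in DHX35-dTAG cells in DMSO and at 5.99 and 3.11 CPM in dTAG-13. GPATCH1-dTAG libraries held it at 5.18 and 3.44 CPM in DMSO and at 5.87 and 3.12 CPM in dTAG-13. Replicate 1 of the first group was 3.31 times the highest of the others, and the other 7 libraries lay between 3.11 and 6.56 CPM.

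Rn7s2 was at 54.6 and 26.6 CPM in DHX35-dTAG cells in DMSO and at 28.8 and 23.6 CPM in dTAG-13. In GPATCH1-dTAG cells it was at 21.96 and 21.87 CPM in DMSO and at 30.2 and 27.7 CPM in dTAG-13. It was thus higher in both dTAG-13 libraries there, as were 36.4% of all genes tested. The log2 fold change was 0.23 (standard error 0.29, adjusted p = 1, edgeR), with a spread estimated over all 8 libraries, DHX35-dTAG DMSO replicate 1 among them. In a fit of the GPATCH1-dTAG libraries alone it was also 0.23 (adjusted p = 0.35, edgeR). On DHX35 depletion the log2 fold change was -1.42 (standard error 0.54, adjusted p = 0.715, edgeR) for Rn7s1 and -0.40 (standard error 0.29, adjusted p = 0.72, edgeR) for Rn7s2, and without DHX35-dTAG DMSO replicate 1 these became -0.28 and 0.24. As both genes have the same sequence, how counts were split between them is uncertain, and further stretches of 100 bases recur in Gm26461 and Rn7s6. Beside Rn7s1 starts Rps29, a ribosomal protein gene 109 bases away in the opposite direction, with 369 CPM in replicate 1 and 273 to 333 CPM in the others.

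Of the genes for proteins of the signal recognition particle and its receptor, 9 of 10 were tested and 0 were called. Srp72 had the lowest p on DHX35 depletion (log2 fold change 0.40, standard error 0.22, adjusted p = 0.715, edgeR, and 0.02 without DHX35-dTAG DMSO replicate 1) and Srp68, its partner in the particle, on GPATCH1 depletion (0.13, standard error 0.09, adjusted p = 1, edgeR). In DHX35-dTAG DMSO replicate 1, Srp14 was at 74.7 CPM against 35.01 to 50.02 in the others and Srp72 at 88.4 CPM against 138 to 186. Members of a single particle thus lay above and below the range of the other libraries.

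Rmrp, the RNA of RNase MRP, was at 8175 and 5601 CPM in DHX35-dTAG cells in DMSO and at 5794 and 4562 CPM in dTAG-13. The GPATCH1-dTAG line had it at 5211 and 4199 CPM in DMSO and at 5247 and 4733 CPM in dTAG-13. Replicate 1 of the first group was 1.41 times the highest of the others. The log2 fold change was -0.19 (standard error 0.17, adjusted p = 0.74, edgeR) on DHX35 depletion and -0.08 (standard error 0.17, adjusted p = 1, edgeR) on GPATCH1 depletion. Within a library, Rmrp had 1.05 to 1.34 times the counts of Rn7sk, and replicate 1 (1.16) was inside the range of the others, so that both RNAs were higher there by a like factor.

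Rmrp overlaps an exon of Ccdc107, a protein-coding gene on the opposite strand, by 164 bases. Ccdc107 was at 1430 CPM in replicate 1 and at 393 to 667 CPM in the other 7 libraries. The strand setting of the counting is not given in the sources used here, so that reads of this overlap cannot be assigned to a strand with certainty. The part of the overlap in either value was not tested.

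Rpph1, the catalytic RNA of RNase P, was barely counted, with 18 and 3 counts in DHX35-dTAG cells in DMSO, 1 and 3 in dTAG-13, 2 and 3 in GPATCH1-dTAG cells in DMSO and 14 and 4 in dTAG-13. Its level in replicate 1 was 4.49 times that of the other 7 libraries together (exact 95% interval 2.36 to 8.32 from counting error), and GPATCH1-dTAG dTAG-13 replicate 1 was the next highest. No difference between groups passed the threshold at these counts (adjusted p = 0.715 and 1 for the depletions, edgeR). On DHX35 depletion the fitted value, -2.02 on the log2 scale with a standard error of 1.08, became -0.14 without DHX35-dTAG DMSO replicate 1. Of its 319 bases, 284 lie in an exon of Ccnb1ip1 on the same strand, a gene with 152 to 346 counts, and Parp2 starts 74 bases away in the opposite direction. How reads of the overlap were counted is not given in the sources used here. The part of the overlap in the low counts of Rpph1 was not tested. Neither neighbour was outside the range of the other 7 libraries in replicate 1, with 16.6 CPM for Ccnb1ip1 (12.7 to 23.6 in the others) and 58.0 CPM for Parp2 (47.9 to 64.5).

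RNase P and RNase MRP share most of their proteins, and all 11 of these were tested and 0 called. Rpp40 had the lowest p on DHX35 depletion (log2 fold change 0.34, standard error 0.20, adjusted p = 0.715, edgeR, and 0.06 without DHX35-dTAG DMSO replicate 1) and Rpp14 on GPATCH1 depletion (0.23, standard error 0.11, adjusted p = 1, edgeR). In DHX35-dTAG DMSO replicate 1, 4 of the 11, Pop5, Rpp14, Rpp25 and Rpp25l, were above all other 7 libraries, a share near the 32.6% of all genes tested.

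Terc, the template RNA of telomerase, was at 87.9 and 52.8 CPM in DHX35-dTAG cells in DMSO and at 53.9 and 43.0 CPM in dTAG-13. GPATCH1-dTAG libraries held it at 52.9 and 41.1 CPM in DMSO and at 66.6 and 56.0 CPM in dTAG-13. It was higher in both dTAG-13 libraries of the GPATCH1-dTAG line, as were 36.4% of all genes tested. The log2 fold change there was 0.22 (standard error 0.21, adjusted p = 1, edgeR), with a spread estimated over all 8 libraries. In a fit of the GPATCH1-dTAG libraries alone it was also 0.22 (adjusted p = 0.21, edgeR). On DHX35 depletion the log2 fold change was -0.31 (standard error 0.21, adjusted p = 0.72, edgeR). Terc had 0.0110 to 0.0161 counts for each count of Rn7sk, and 0.0125 in replicate 1, inside the range of the others.

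All 9 genes for telomerase and H/ACA proteins were tested and 0 were called. Shq1, an assembly factor of these particles, had the lowest p on DHX35 depletion (log2 fold change -0.26, standard error 0.13, adjusted p = 0.715, edgeR, and -0.06 without DHX35-dTAG DMSO replicate 1), and Wrap53, which brings telomerase to Cajal bodies, on GPATCH1 depletion (0.19, standard error 0.15, adjusted p = 1, edgeR). In DHX35-dTAG DMSO replicate 1, Nhp2 was at 251 CPM against 132 to 189 in the others, while Nop10, another core H/ACA protein, was at 20.9 CPM against 52.4 to 69.8.

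Rnu12, the minor spliceosome RNA that recognises the branch site, showed a wide gap between replicates. It was at 23.5 and 5.08 CPM in DHX35-dTAG cells in DMSO and at 3.00 and 4.47 CPM in dTAG-13. In GPATCH1-dTAG cells it was at 4.91 and 3.30 CPM in DMSO and at 7.14 and 4.18 CPM in dTAG-13. Its log2 fold change on DHX35 depletion was -1.68 (standard error 0.64, adjusted p = 0.715, edgeR) and became -0.16 without replicate 1 in DMSO.

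Rnu11, which recognises the 5′ splice site of the same introns, rested on 17 to 47 counts. It was at 3.68 and 1.41 CPM in DHX35-dTAG cells in DMSO and at 1.83 and 1.36 CPM in dTAG-13. The GPATCH1-dTAG line had it at 1.91 and 1.27 CPM in DMSO and at 1.80 and 1.98 CPM in dTAG-13. The log2 fold changes were -0.43 (standard error 0.43, adjusted p = 0.77, edgeR) and 0.08 (standard error 0.44, adjusted p = 1, edgeR). The whole gene lies opposite an exon of the non-coding RNA gene Gm28872, which had 0 to 9 counts. Gm28872 was at 0.705 CPM in DHX35-dTAG DMSO replicate 1 and at 0 to 0.225 CPM in the others. The part of this overlap in either value was not tested. Rnu12 had 6.38 times the counts of Rnu11 in replicate 1 and 1.64 to 3.96 times in the other libraries, so that both RNAs of the minor spliceosome were not higher there by the same factor. Poldip3, which starts 260 bases from Rnu12 in the opposite direction, was at 269 CPM there, inside the 237 to 339 CPM of the others.

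All 8 genes for U11/U12 proteins were tested and 0 were called. On DHX35 depletion, the lowest p was that of Snrnp35 (log2 fold change -0.62, standard error 0.24, adjusted p = 0.715, edgeR, and -0.31 without DHX35-dTAG DMSO replicate 1), and on GPATCH1 depletion that of Snrnp48 (-0.28, standard error 0.09, adjusted p = 1, edgeR). In DHX35-dTAG DMSO replicate 1, 6 of the 8 were above all other 7 libraries, against 32.6% of all genes tested, and the median log2 ratio was 0.52. Snrnp35 was at 7.83 CPM there against 3.03 to 5.43 CPM, and Pdcd7 at 64.0 against 25.6 to 39.2 CPM.

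Of the Y RNAs, Rny1 was the RNA of the 10 that was not high in DHX35-dTAG DMSO replicate 1. It was at 11.7 and 9.95 CPM in DHX35-dTAG cells in DMSO and at 10.9 and 16.4 CPM in dTAG-13. GPATCH1-dTAG libraries held it at 13.8 and 23.2 CPM in DMSO and at 12.6 and 11.3 CPM in dTAG-13. It was thus lower in both dTAG-13 libraries there, as were 4.54% of all genes tested. Its log2 fold change was 0.60 (standard error 0.35, adjusted p = 0.715, edgeR) on DHX35 depletion and -0.83 (standard error 0.34, adjusted p = 1, edgeR) on GPATCH1 depletion. The difference between these responses was -1.43 (standard error 0.49, adjusted p = 0.86, edgeR), and Rny1 was higher in GPATCH1-dTAG than in DHX35-dTAG cells in DMSO by 1.00 (standard error 0.34, adjusted p = 0.35, edgeR), neither of which passed the threshold. The value on DHX35 depletion was 0.16 without DHX35-dTAG dTAG-13 replicate 2 and 0.94 without replicate 1 of that group. Without GPATCH1-dTAG DMSO replicate 2, in which Rny1 was highest, the values were -0.22 on GPATCH1 depletion and 0.39 for the line difference.

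Rny3 was at 9.24 and 4.09 CPM in DHX35-dTAG cells in DMSO and at 4.49 and 6.97 CPM in dTAG-13. In GPATCH1-dTAG cells it was at 4.71 and 7.56 CPM in DMSO and at 5.67 and 5.10 CPM in dTAG-13. The groups of each line overlapped, with log2 fold changes of 0.05 (standard error 0.44, adjusted p = 0.98, edgeR) and -0.38 (standard error 0.44, adjusted p = 1, edgeR). Rny1 had 1.26 times the counts of Rny3 in DHX35-dTAG DMSO replicate 1 and 2.22 to 3.07 times in the other libraries.

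Both Y RNAs were high where Gm23935 and CT010467.1 took most counts. These genes took 20.9% of the counts in GPATCH1-dTAG DMSO replicate 2 and 20.2% in DHX35-dTAG dTAG-13 replicate 2. With TMM scaling, which is less affected by such genes, Rny1 was at 27.4 and 19.2 CPM in these libraries and at 9.05 to 13.05 CPM in the other 6, and Rny3 at 8.91 and 8.12 CPM, with 3.72 to 5.26 CPM in 5 others and 8.70 CPM in DHX35-dTAG DMSO replicate 1. The library with the next share, 11.98%, had 11.2 CPM of Rny1 and 4.61 CPM of Rny3, inside the range of the remaining libraries. The part of the ribosomal RNA share in these values was not tested. Of the 4 symbols listed for Y RNA binding proteins, 3 genes were in the tables, all were tested and 0 were called. Puf60 had the lowest p on DHX35 depletion (log2 fold change 0.16, standard error 0.08, adjusted p = 0.715, edgeR, and 0.13 without DHX35-dTAG DMSO replicate 1) and Ssb, the La protein, on GPATCH1 depletion (-0.07, standard error 0.14, adjusted p = 1, edgeR). None of the 3 was above the other 7 libraries in replicate 1.

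**Figure D4:**
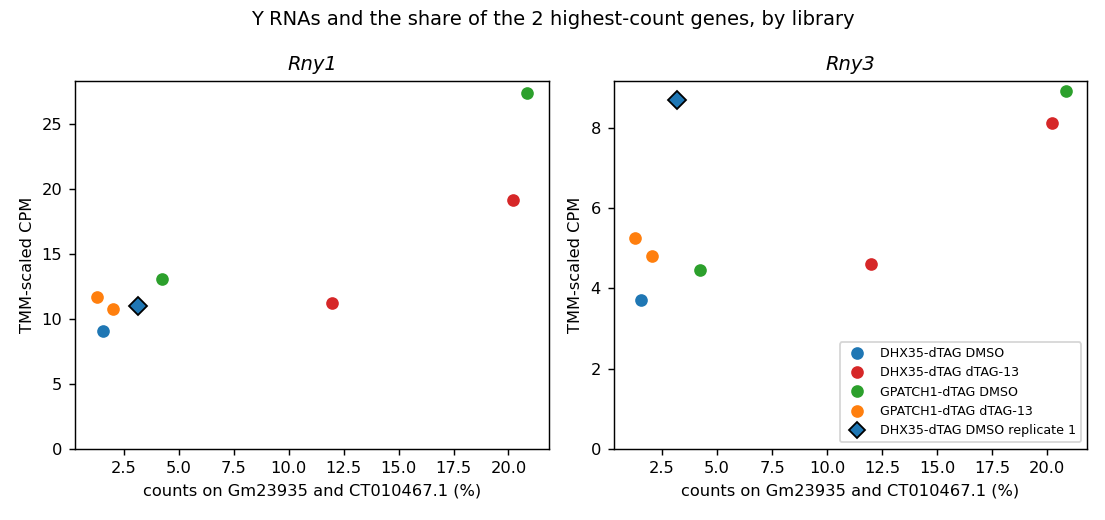
TMM-scaled CPM of Rny1 (left) and Rny3 (right) against the percentage of each library's counts on Gm23935 and CT010467.1, with 1 point per library coloured by group. The 2 libraries at 20.2% and 20.9% have the highest Rny1 values, and DHX35-dTAG DMSO replicate 1 (diamond) is high for Rny3 only.

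The machinery that makes and trims these RNAs was described from fixed lists. All 28 genes for RNA polymerase III and its initiation factors were tested, with 0 called and medians of -0.02 and 0.02 (log2 fold change) for the depletions. The lowest p was that of Crcp, a polymerase subunit (0.23, standard error 0.10, adjusted p = 0.715, edgeR), on DHX35 depletion and that of Snapc5, a subunit of the snRNA promoter factor (-0.41, standard error 0.20, adjusted p = 1, edgeR), on GPATCH1 depletion. Of these 28 genes, 10 were above all other 7 libraries in DHX35-dTAG DMSO replicate 1, a share near the 32.6% of all genes tested. Of the Integrator subunits, which cut the ends of U RNA precursors, 14 were in the tables and tested and 0 were called, with Ints9 (0.19, standard error 0.12, adjusted p = 0.715, edgeR) and Ints11 (0.18, standard error 0.09, adjusted p = 1, edgeR) at the lowest p, and 2 of the 14 were above the other 7 libraries in replicate 1. Without that library the values on DHX35 depletion were 0.30 for Crcp and 0.06 for Ints9.

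The cell type markers were read in the same way. Tested were 10 of 10 markers of stem cells, 7 of 10 of endoderm, mesoderm and neural cells and 3 of 8 of fibroblasts, and 0 of these were called on either depletion. The lowest p was that of Dppa5a (-0.54, standard error 0.22), Sox1 (0.32, standard error 0.16) and Thy1 (-0.47, standard error 0.29) on DHX35 depletion and that of Tdgf1 (-0.12, standard error 0.11), Gata6 (0.78, standard error 0.34) and Pdgfra (0.30, standard error 0.25) on GPATCH1 depletion, all as log2 fold changes. Without DHX35-dTAG DMSO replicate 1, the values on DHX35 depletion were -0.04 for Dppa5a, 0.27 for Sox1 and -0.17 for Thy1. The summed level of the stem cell markers was 6794 CPM in DHX35-dTAG DMSO replicate 1 and 4853 to 6595 CPM in the others. Pou5f1, Dppa5a and Utf1 were above all other 7 libraries there, Nanog (494.6 CPM against 495.2 to 633.6) and Klf4 (264 against 276.5 to 390.6) were below them all, and the median log2 ratio of the 10 was -0.04. The summed level of the endoderm, mesoderm and neural markers was 35.3 CPM against 30.9 to 40.8. The fibroblast markers summed to 7.68 CPM there against 3.74 to 5.93, with Thy1 (3.84 CPM) and Col1a1 (2.27 CPM) above the other 7 libraries, Pdgfra (1.567 CPM against 1.573 to 2.434) below them, and Col1a2, Col3a1, Dcn, Lum and Postn at 0. The part of these markers in the other values was not tested.

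Some other classes of short RNA were also higher in this library at the median, with genes on both sides. The median log2 ratio to the other 7 libraries was 0.82 for the 53 tested snoRNA and scaRNA genes, of which 66.0% were above all other 7, and 0.95 for the 10 RNAs. For 42 other snRNA genes it was 0.39, with 52.4% above all other 7 and 21.4% below. For 20 other genes annotated as misc_RNA it was 0.84, with 60.0% above and 15.0% below. It was -1.24 for 16 mitochondrial genes and -0.92 for 9 histone genes, which in sum took 0.0330% of its counts, more than the 0.0221% to 0.0306% elsewhere. By exon length, the median fell from 0.44 for 334 genes under 200 bases to 0.27 for 2060 genes of 1000 to 2000 bases, 0.13 for 4722 genes of 2000 to 4000 bases and -0.004 for 7582 longer genes, the 10 RNAs left out. Among protein-coding genes alone the order broke at short lengths, with medians of -0.81 for 4 genes under 200 bases, 0.07 for 24 genes of 200 to 500 bases and 0.38 for 224 genes of 500 to 1000 bases. All 10 RNAs are under 500 bases. Of the 452 other genes of 200 to 500 bases, 40.7% were above all other 7 libraries and 23.5% below, against 32.6% and 15.1% of all genes tested. The upper quartile was 1.07 for the genes under 200 bases and 0.94 for those of 200 to 500 bases, and 4 of the 10 RNAs (Rn7s1, Rn7s2, Rpph1 and Rnu12) were above that of their own length class. The part of RNA length, RNA quality or library preparation in these values was not tested.

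**Figure D5:**
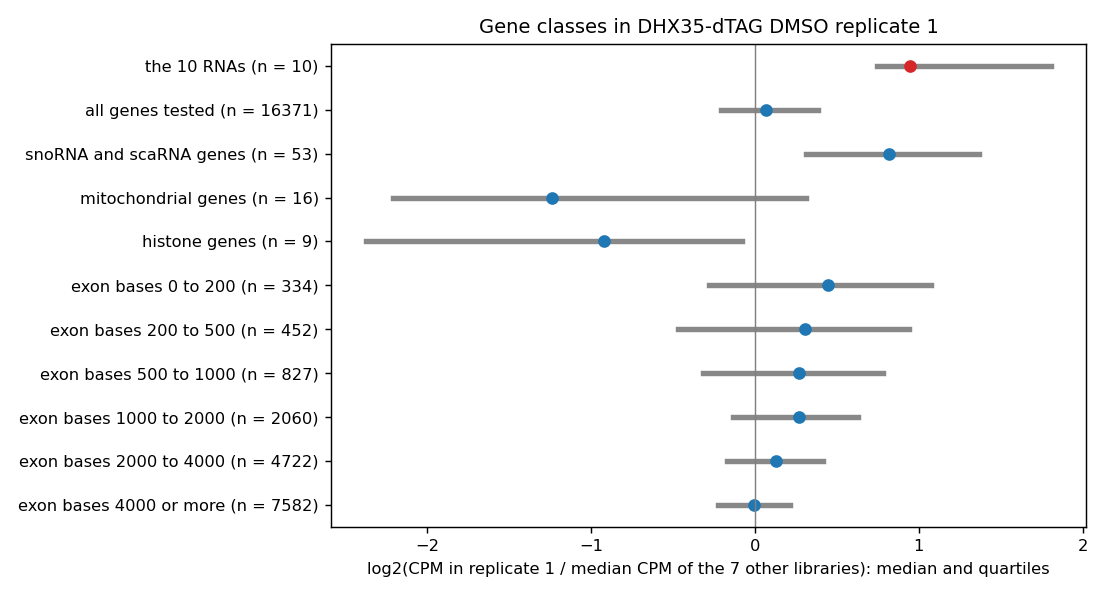
Median (point) and quartiles (bar) of log2 CPM in DHX35-dTAG DMSO replicate 1 over the median of the 7 other libraries, for the 10 RNAs (red) and for other gene classes (blue), with the number of tested genes. The 10 RNAs (0.95) and the snoRNA and scaRNA genes (0.82) lie to the right of all genes tested (0.07), and mitochondrial genes (-1.24) to the left.

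Among 8977 tested genes with a mean of at least 10 CPM, those whose log2 CPM followed the mean of the 10 RNAs most closely over the 8 libraries were Snord15a (Pearson r = 0.998), Eef1a1-ps1, Rprl3 and Rnu3a (0.988 each) and Gm11942 (0.987). Snord15a is a snoRNA, Rnu3a a U3 RNA and Rprl3 an RNase P-like RNA, and all are short. These correlations rest on 1 library, which was at 34.0 CPM for Snord15a against 5.76 to 10.4 CPM in the others, at 575 CPM for Rnu3a against 66.0 to 118 CPM, and at 1378 CPM for Rprl3 against 60.8 to 138 CPM. Over the 7 libraries without it, Snord15a was again the closest (r = 0.973), and Rpl38-ps2 (0.953) and Myh14 (0.936) were also among the 5 closest. Snord15a alone was in both lists. Among the 10 RNAs themselves, the median r over 45 pairs was 0.83 over the 8 libraries and 0.23 over the 7, where it ranged from -0.96 to 0.91. These values are across libraries that share groups and totals, and describe likeness only.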

How the data were processed

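RNA-seq of 8 mouse embryonic stem cell libraries was used, grouped by the sample labels. The authors removed ribosomal RNA, added human DLD-1 RNA, prepared stranded libraries, trimmed reads with Trim Galore 0.6.6 and aligned them with STAR 2.7.5c to mm10 and hg19 (versions per the submitters' processing notes). Each library has a deposited table of unnormalized counts per gene. The counting program, annotation and strand setting are not given in the sources used here.

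Differences in counts were fitted in R 4.3.3 by edgeR 4.0.16 (glmQLFit, glmQLFTest, TMM, filterByExpr on the 4 groups, all 8 libraries, Benjamini-Hochberg over 16371 genes, threshold 0.05), and dTAG-13 across both lines with terms for line and treatment. The standard error of a log2 fold change is its size over the root of F. CPM are counts over the library total, and lengths are those of the GENCODE M21 transcripts (GRCm38). Structures were predicted with RNAfold 2.7.2. Replicates varied by 11.2% (coefficient of variation, common dispersion 0.0125). In simulated libraries of 16371 genes for DHX35 depletion, 182 of 200 genes changed 2-fold were called, with 12 unchanged genes. The changed genes were picked above a minimum level, and each gene varied on its own, without a library shifted over many genes together. The recovery therefore does not describe the real comparison, nor RNAs with low counts or wide errors such as Rnu11, Rn7s1, Rnu12 and Rpph1.

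The RNAs and the gene lists were chosen with earlier results of these data known. Named were the 10 RNAs, the gene of each list with the lowest p, protein-coding genes overlapping an RNA or starting within 1000 bases of it, and the 5 genes most like the mean of the RNAs over 8 and over 7 libraries. Some of the latter are not reported here. Any further gene was named with its values in view. Alternatives were DESeq2 1.42.0, other size factors, other filters, a replicate block, fits of the compared groups alone, each library left out in turn, and other scalings and references for the library set against the other 7.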

Additional observations from a re-analysis of the deposited data

Results flagged for a closer look

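Over the 8 libraries, 6 of the 10 RNAs had a highest value whose gap to the next, as a share of the whole range, was above Dixon's 95% critical value. In each, DHX35-dTAG DMSO replicate 1 was the highest library. The gap was 0.814 of the range for Rn7s1, 0.798 for Rnu12, 0.755 for Rn7sk, 0.745 for Rn7s2, 0.708 for Rnu11 and 0.599 for Rmrp. Terc (0.456), Rpph1 (0.359) and Rny3 (0.326) were highest in the same library without passing the limit, and Rny1 (0.510) was highest in GPATCH1-dTAG DMSO replicate 2. The 8 libraries are 4 groups of 2, chance flags about 1 in 20 such sets, and the values of the RNAs in a library are not independent.
This library was already singled out on the same values, so that these gaps describe them again and are not independent support.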

How the results depend on the processing

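No alternative except those named here changed the count of called RNAs from 0. Without an expression filter, 345, 21, 80, 140 and 986 genes and 3, 1, 2, 3 and 6 of the 10 RNAs were called for DHX35 depletion, GPATCH1 depletion, dTAG-13 across both lines, the difference between the responses and the line difference in DMSO. How many genes these fits tested is not given here, so that the counts of RNAs cannot be set against a share of all genes. The RNAs were Rn7s1, Rnu12 and Rny1 on DHX35 depletion and Rny1 on GPATCH1 depletion. The cause was not tested. DESeq2 called 1 gene on DHX35 depletion, 4 across both lines, 9 for the difference between the responses and 47 for the line difference (15 with edgeR). A minimum of 10 counts in every library gave 4 genes for the line difference. Fits of the compared groups alone gave 1, 127 and 2 genes for DHX35 depletion, GPATCH1 depletion and the line difference.

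With a replicate block, the difference between the responses gave 2 genes, the line difference 16 in place of 15, and the other counts stayed at 0. No pairing was assumed, since the labels do not say what a number shares, and replicate differences correlated between groups by 0.035 to 0.338, above 0.1 in 4 of 6 pairs of groups.

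With each library left out in turn, called genes ranged from 0 to 4947 on DHX35 depletion, from 0 to 51 on GPATCH1 depletion, from 0 to 8 across both lines, from 0 to 3588 for the difference between the responses and from 4 to 5886 for the line difference. RNAs were called only when DHX35-dTAG DMSO replicate 2 was left out, and then neither on GPATCH1 depletion nor across both lines. That fit leaves replicate 1, in which most of these RNAs were highest, as the lone control of its line, so that these calls are no result on depletion.

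Log2 fold changes that changed sign are given with their range. On DHX35 depletion these were Rn7sk (-0.56 to 0.18), Rn7s2 (-0.84 to 0.24), Rmrp (-0.44 to 0.14), Terc (-0.64 to 0.14), Rnu11 (-0.99 to 0.43) and Rny3 (-0.45 to 0.77). On GPATCH1 depletion they were Rn7sk (-0.096 to 0.054), Rn7s1 (-0.61 to 0.27), Rnu11 (-0.04 to 0.23), Rnu12 (-0.12 to 0.62) and Rny3 (-0.82 to 0.17). For the line difference they were Rn7sk (-0.688 to 0.046), Terc (-0.737 to 0.041), Rnu11 (-1.03 to 0.39) and Rny3 (-0.46 to 0.78).

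The median log2 ratio of replicate 1 to the other 7 libraries moved from 0.95 to 1.11 against the other DMSO library of its line alone, where Rny1 turned from -0.11 to 0.23, and moved little under other scalings. Low counts limit Rpph1 and Rnu11 most, at 1 to 18 and 17 to 47, and most of Rpph1 lies in an exon of Ccnb1ip1.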
